A study of Mus musculus with 6 samples.

Results

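Genes of the T-cell receptor complex and its first signalling steps were examined in the marrow of SCID/Bg mice given NOX-A12 and of untreated ones. The set held 9 genes, namely Trgv4, Cd3d, Cd3e, Cd3g, Cd247, Lck, Lat, Tcf7 and Bcl11b, and a probe set belonged to it when the platform's annotation gave it exactly 1 gene symbol and that symbol was among the 9. This rule took 15 of the 45037 probe sets on the array, covering 7 of the 9 genes. Lck, the kinase that starts receptor signalling, and Tcf7, a transcription factor of early T cells, had no probe set under this rule and were not analysed here. Marrow came from 3 mice given NOX-A12 and from 3 untreated mice, all of the SCID/Bg strain, and was taken as whole marrow, with 1 array of the Affymetrix Mouse Genome 430 2.0 type for each animal. NOX-A12 is an aptamer made of mirror-image RNA that captures CXCL12, the chemokine that retains blood-forming cells in the marrow. No dose, schedule, age or sex is given in the labels. Both groups carried the scid and beige defects of the strain, so every comparison was between immunodeficient mice.

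The T-cell receptor pairs an alpha chain with a beta chain, or a gamma chain with a delta chain, and both pairs reach the cell surface only together with the CD3 gamma, delta and epsilon chains and the zeta chain encoded by Cd247. The antigen-binding chains are built by joining gene segments, a process that the scid mutation of the Prkdc kinase gene largely blocks, so that mature T and B cells are scarce in this strain, while the beige mutation of Lyst impairs the granules of natural killer cells. Several of these genes are not restricted to T cells: the zeta chain and LAT are also used by natural killer cells, and LAT by mast cells and platelets.

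Values are the deposited probe-set intensities, and each log2 change is the mean log2(intensity + 16) of NOX-A12 mice minus that of untreated mice, with standard errors (SE) and 95% intervals from limma fitted over all probe sets. This scale understates the change of dim probe sets. The files give no detection calls, so the signal of 79 probe sets of olfactory, vomeronasal and trace amine receptor genes, taken not to be expressed in marrow, served as a measure of background. A probe set was near background on an array where it was under the 95th percentile of these receptors, which lay between 34.6 and 43.3 over the 6 arrays. The array of untreated mouse 3 stood apart: 851 of its probe sets differed by over 2-fold, on the same scale, from the other arrays' median, against 44 to 67 on each of the other 5. The summed level of 8 skeletal muscle genes was 240 to 322 in the NOX-A12 mice, against 621 in untreated mouse 3 and 249 to 276 in the other untreated mice. Myh1, a myosin heavy chain gene, carried the excess, with 8.30 to 24.95 in the NOX-A12 mice, against 355 in untreated mouse 3 at 1427520_a_at. Mylpf, a myosin light chain gene, had 141 to 157 in the NOX-A12 mice and 154 in untreated mouse 3, and 5 of the 8 genes were near background on all 6 arrays. Changes without untreated mouse 3 are therefore given for every member and for the pathway genes named with values in each mouse. All 13 measured genes of the marrow myeloid and erythroid list were above the background limit on all 6 arrays.

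Cd3d, Lat and 2 probe sets of Trgv4 were above background in every mouse, Cd3g in 5 of 6 mice, and the remaining members were near background in most or all mice. Of the 15 probe sets, 4 were above the limit on all 6 arrays, 7 were below it on all 6, and 4 were above it on some arrays. Those below it throughout were the Cd3e probe set, 3 of 4 for Cd247, 2 of 4 for Bcl11b and 1 of 3 for Trgv4. Their intensities ranged from 1.04 to 33.5, and the fold differences there carry little information.

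**Figure D1:**
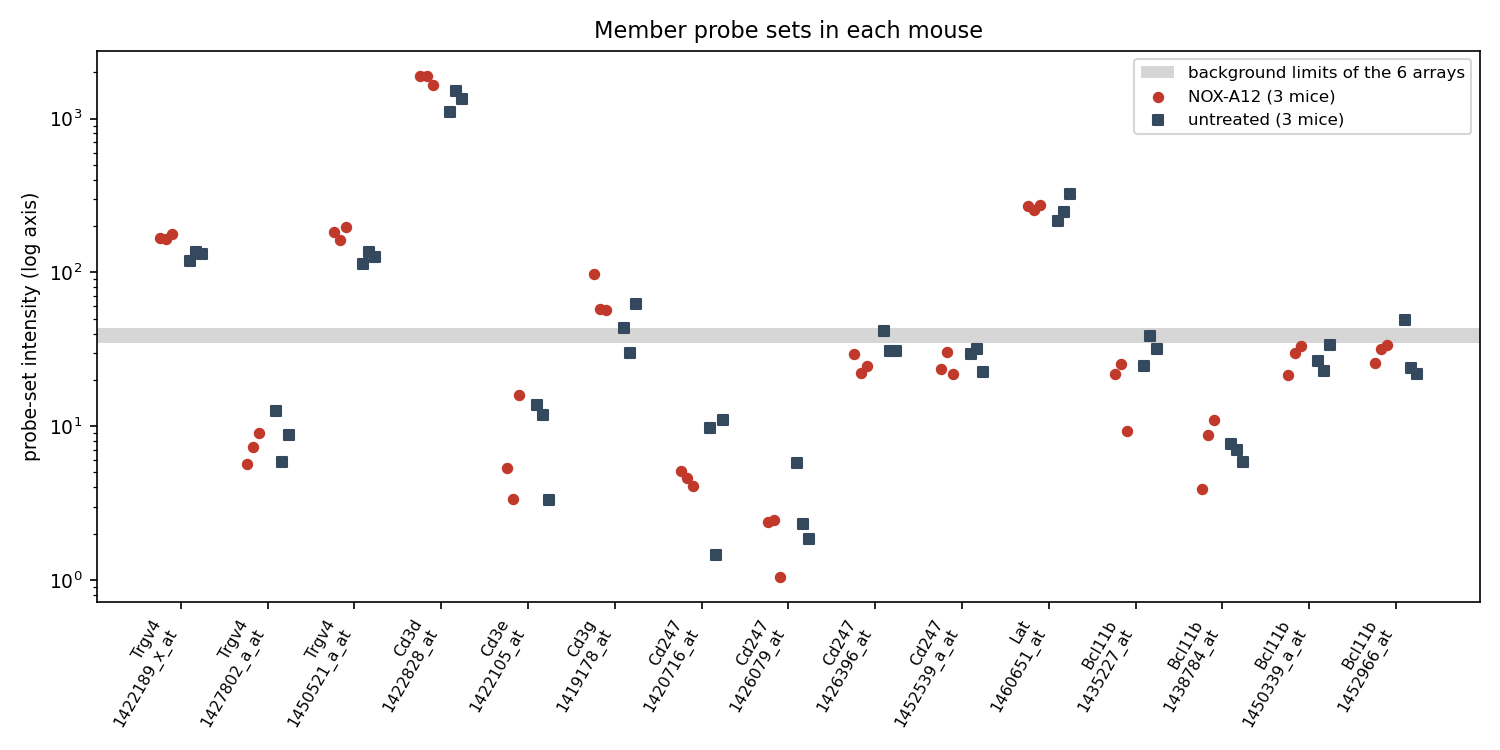
Probe-set intensity (log axis) of the 15 member probe sets, with 3 NOX-A12 mice (circles, left) and 3 untreated mice (squares, right) for each, 1 point a mouse, and a grey band for the background limits of the 6 arrays, 34.6 to 43.3. The Cd3d, Lat and 2 of the Trgv4 probe sets lie above the band in every mouse, while Cd3e lies below it in every mouse.

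Trgv4 encodes a variable segment of the gamma chain, on chromosome 13 from 19184981 to 19185506 (RefSeq, GRCm38.p6). Probe set 1450521_a_at had intensities of 184, 163 and 197 in NOX-A12 mice 1, 2 and 3, against 114, 135 and 125 in untreated mice 1, 2 and 3. Probe set 1422189_x_at had 167, 164 and 176 in NOX-A12 mice, against 118, 135 and 132 in untreated mice. At both, every NOX-A12 mouse was above every untreated mouse. The log2 changes were 0.49 ± 0.11 (SE; 95% interval 0.23 to 0.74) and 0.36 ± 0.09 (0.14 to 0.58), or 0.49 and 0.38 without untreated mouse 3. Neither passed limma's test with Benjamini-Hochberg adjustment over all probe sets (adjusted p = 0.926 for each). The x suffix marks a probe set whose probes may bind related sequences, the a suffix one that covers variants of a gene, and gamma segments resemble each other, so the 2 probe sets are not independent measurements and signal from other gamma segments was not separated. The Trgv4 probe set 1427802_a_at was near background in all 6 mice, at 5.71, 7.36 and 8.99 in NOX-A12 mice and 12.6, 5.84 and 8.71 in untreated mice, and gave -0.09 ± 0.12, or -0.10 without untreated mouse 3. Because the RNA came from whole marrow, a change in the number of cells of a type and a change in RNA per cell cannot be told apart for this gene or any other.

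Cd3d encodes the CD3 delta chain, which pairs with CD3 epsilon. Its probe set 1422828_at had intensities of 1895, 1893 and 1650 in NOX-A12 mice 1, 2 and 3, against 1105, 1513 and 1340 in untreated mice. The groups did not overlap, although NOX-A12 mouse 3 and untreated mouse 2 lay close to each other. The mean was 1813 ± 141 in NOX-A12 marrow and 1319 ± 205 in untreated marrow (SD, n = 3 each). The log2 change was 0.46 ± 0.14 (95% interval 0.14 to 0.78), a fold of 1.38, and limma's adjusted p was 0.942. It was 0.34 without untreated mouse 1, which had the lowest level, and 0.48 without untreated mouse 3. In the order of level, the NOX-A12 mice came first and untreated mouse 1 last.

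Cd3g encodes the CD3 gamma chain, the other partner of CD3 epsilon. Its probe set 1419178_at had 97.1, 57.6 and 56.5 in NOX-A12 mice 1, 2 and 3, against 43.5, 30.0 and 61.8 in untreated mice. The groups overlapped, since untreated mouse 3 was above 2 of the NOX-A12 mice, and untreated mouse 2 was below its background limit. The log2 change was 0.50 ± 0.24 (95% interval -0.06 to 1.07; adjusted p = 0.967 in limma). It depended on single mice and on the offset, at 0.29 without NOX-A12 mouse 1, 0.31 without untreated mouse 2, 0.69 without untreated mouse 3 and 0.30 with an offset of 64.

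Cd3g and Cd3d are neighbours on mouse chromosome 9 and are transcribed away from each other from start sites 1355 bases apart, and the segments before both starts are shown because these adjacent genes had the higher point estimates among the CD3 chains. They are the 250 bases before each annotated start, from RefSeq (GRCm38.p6), written 5′ to 3′ on the gene's strand: chr9:44981536-44981785 on the plus strand for Cd3d and chr9:44980432-44980681 on the minus strand for Cd3g. Capitals mark matches, on either strand, to 5 motifs that were searched by their letters.
Cd3d: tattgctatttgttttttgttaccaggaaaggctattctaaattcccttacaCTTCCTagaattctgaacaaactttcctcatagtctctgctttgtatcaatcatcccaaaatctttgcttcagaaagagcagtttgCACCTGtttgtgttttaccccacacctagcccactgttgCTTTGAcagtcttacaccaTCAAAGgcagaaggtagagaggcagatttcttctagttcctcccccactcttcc
Cd3g: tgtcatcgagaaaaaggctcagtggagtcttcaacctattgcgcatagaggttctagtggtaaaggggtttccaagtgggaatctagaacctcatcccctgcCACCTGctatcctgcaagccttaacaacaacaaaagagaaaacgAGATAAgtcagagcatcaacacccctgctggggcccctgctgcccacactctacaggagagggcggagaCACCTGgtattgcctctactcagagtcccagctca
The Cd3d segment held 4 matches, 1 for ETS, 1 for the E-box and 2 for TCF/LEF at positions -73 to -68 and -54 to -49 from the start. The Cd3g segment held 3 matches, 2 for the E-box and 1 for GATA. The ETS motif was searched as AGGAAG, which 29.5% of 32851 promoter segments of the same length held. The E-box, read as CAGGTG, was held by 17.2% of them, and the TCF/LEF motif, read as CTTTGA, by 13.8%. The GATA motif, AGATAA, was in 9.99% of the segments, while the RUNX motif, TGTGGT, was in 14% and in neither of the pair. The matches do not overlap each other and are descriptions of sequence only.

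Cd3e encodes CD3 epsilon, the chain shared by both CD3 pairs, and lies beyond Cd3d on chromosome 9, from 44998735 to 45009663. Its probe set 1422105_at had 5.31, 3.35 and 15.9 in NOX-A12 mice, against 13.7, 11.9 and 3.31 in untreated mice. All 6 values were near background and the groups overlapped. The log2 change was -0.09 ± 0.23, with a 95% interval from -0.64 to 0.45, and -0.29 without untreated mouse 3, so these arrays do not tell whether Cd3e transcripts differed.

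Cd247, on chromosome 1, encodes the zeta chain that carries most of the complex's signalling motifs. Its brightest probe set, 1426396_at, had 29.3, 22.1 and 24.6 in NOX-A12 mice, against 41.5, 31.0 and 30.9 in untreated mice. Every NOX-A12 mouse was below every untreated mouse, but the limit was passed on 1 array, that of untreated mouse 1. The log2 change was -0.28 ± 0.12 (95% interval -0.57 to 0.00; adjusted p = 0.967 in limma), -0.19 without untreated mouse 1 and -0.33 without untreated mouse 3. The other 3 probe sets were near background in all 6 mice and gave -0.16 ± 0.17, -0.10 ± 0.11 and -0.09 ± 0.13, with groups that overlapped. Without untreated mouse 3 these were -0.040, -0.15 and -0.18.

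Lat, on chromosome 7, encodes the membrane adaptor that links the activated receptor to calcium and Ras signalling. Its probe set 1460651_at had 271, 255 and 273 in NOX-A12 mice, against 217, 245 and 324 in untreated mice. The 3 NOX-A12 mice lay within the range of the untreated mice. The log2 change was 0.04 ± 0.15, and its 95% interval of -0.30 to 0.38 covers folds from 0.81 to 1.30. Without untreated mouse 3, the mouse with the highest Lat value, the change was 0.19, and without untreated mouse 1 it was -0.08.

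Bcl11b, on chromosome 12, encodes a zinc-finger transcription factor that commits precursors to the T lineage. Probe set 1435227_at had 22.0, 25.2 and 9.37 in NOX-A12 mice, against 24.4, 38.4 and 31.7 in untreated mice. The groups overlapped, and the limit was passed on 1 array, that of untreated mouse 2. The log2 change was -0.47 ± 0.20 (95% interval -0.94 to 0.01; adjusted p = 0.967 in limma), -0.25 without NOX-A12 mouse 3, and -0.46 when untreated mouse 3 was left out. Probe set 1452966_at, above its limit on the array of untreated mouse 1 alone, had 25.9, 31.6 and 33.9 in NOX-A12 mice, against 49.4, 24.0 and 22.0 in untreated mice, and gave 0.00 ± 0.21, or -0.14 without untreated mouse 3. The other 2 probe sets were near background throughout and gave 0.05 ± 0.13 and 0.02 ± 0.14, or 0.020 and 0.11 without untreated mouse 3, so the 4 probe sets of this gene did not share a direction.

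**Figure D2:**
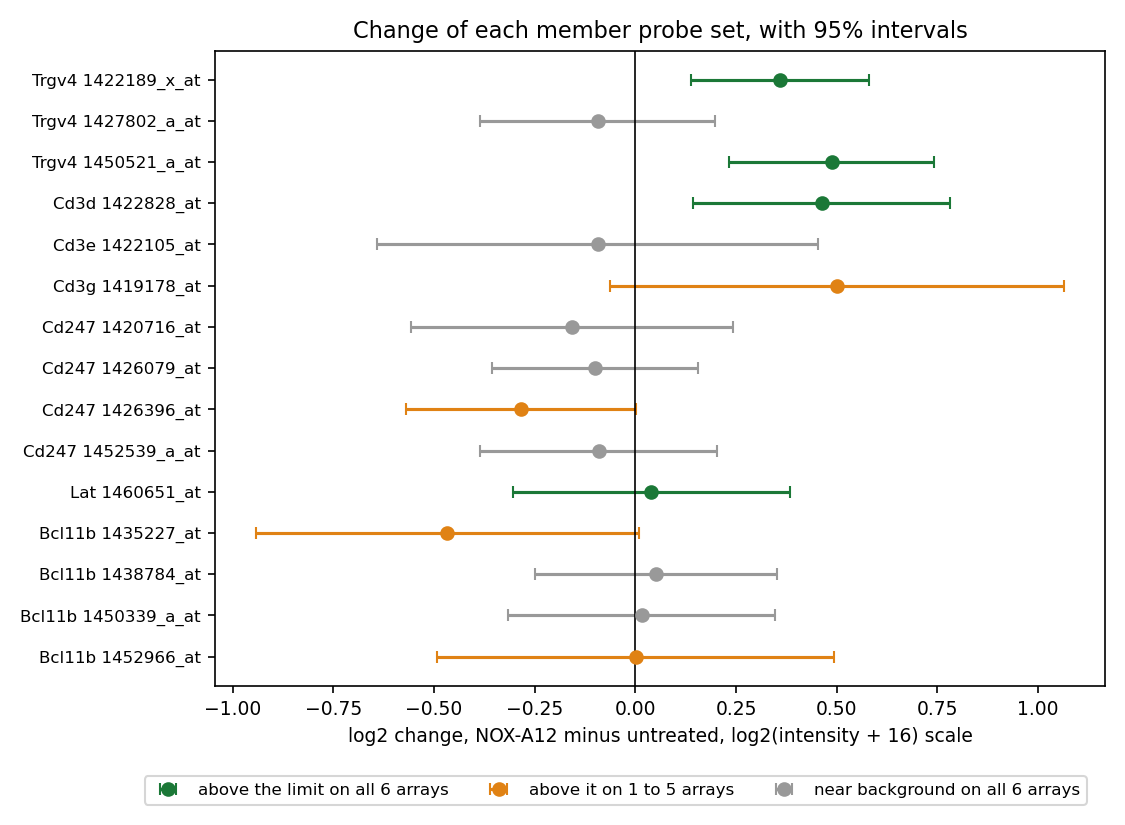
Log2 change (NOX-A12 minus untreated, log2(intensity + 16) scale) of each member probe set, with points for the estimate and bars for the 95% interval, coloured by how many arrays were above the background limit. The intervals of 2 Trgv4 probe sets and of Cd3d lie above 0, without adjustment for the number of probe sets tested, and that of Lat is centred near 0.

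None of the 15 probe sets passed limma's test at an adjusted p under 0.05 (0 of 15; over the whole array 0% passed), and the lowest adjusted p among them was 0.926, against 0.790 over the array. At an unadjusted p under 0.05, 3 were higher, where 1.88% of all probe sets were, and 0 were lower, where 3.1% were. The groups did not overlap for 3 on the higher side, where 4% of all probe sets did not, and for 1 on the lower side, where 5.85% did not. The 3 higher ones were the same in both counts and stand for 2 genes, Trgv4 and Cd3d. Over all 15 the direction was split, with 8 higher, 7 lower and a median of 0.00, beside a median of 0.00 over all probe sets. For a single probe set, an exact permutation test of 3 against 3 mice cannot give a two-sided p under 0.1.

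**Figure D3:**
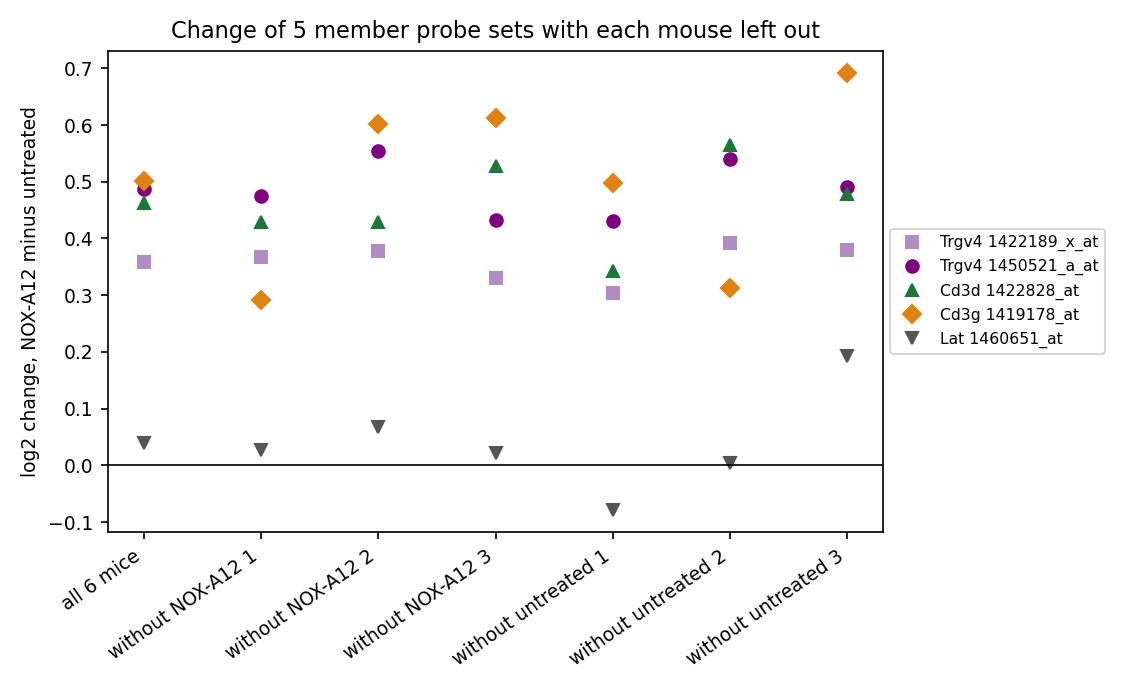
Log2 change (NOX-A12 minus untreated) of 5 member probe sets with all 6 mice and with each mouse left out in turn, the NOX-A12 mice before the untreated mice. Trgv4 and Cd3d stay between 0.30 and 0.57, Cd3g moves between 0.29 and 0.69, and Lat changes sign without untreated mouse 1.

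Genes that act with the receptor were read from 4 lists, which held 57 genes, of which 55 were measured by 122 probe sets. No probe set of these lists passed limma's test (0 of 122, lowest adjusted p = 0.926). At an unadjusted p under 0.05, 2 were higher and 10 lower, where 1.88% of all probe sets on the array were higher and 3.1% lower. With probe sets near background on all 6 arrays left out of the limma fit, 0 of 75 were higher and 6 lower. Over the array, 385 of 26480 were then higher and 865 lower. Medians were -0.05 for 14 probe sets of antigen receptor segments, -0.07 for 18 of coreceptors and costimulators, 0.03 for 45 of proximal signalling and -0.01 for 45 of early T-cell development.

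Among the other receptor segments, 13 of 14 probe sets were near background on all 6 arrays, those of Tcra and of the alpha variable segments included. Trbv1, a beta variable segment, was the segment above background in every mouse, at its probe set 1452205_x_at. It had 99.1, 83.0 and 74.4 in NOX-A12 mice, against 113, 110 and 110 in untreated mice. Every NOX-A12 mouse was below every untreated mouse, opposite to the brighter Trgv4 probe sets, and the log2 change was -0.33 ± 0.11 (adjusted p = 0.967 in limma), or -0.34 without untreated mouse 3. The x suffix applies here too, so signal from related sequences was not separated. The other Trbv1 probe set, 1433108_at, was near background in every mouse and gave 0.005 ± 0.21. An alpha segment, Trav9d-3, had probe sets on both sides, at -0.32 ± 0.12 and 0.18 ± 0.10, all near background. Trgv1, another gamma segment, was near background in every mouse.

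Of the coreceptor and costimulator genes, Cd4, Cd8b1, Cd5 and Cd6 were near background on all 6 arrays. Cd2 and Cd27 were above background on all 6 and gave -0.12 ± 0.12 and 0.08 ± 0.11, with groups that overlapped. Icos, a costimulator of activated T cells, was above it at 1421930_at and gave 0.23 ± 0.14, with groups that overlapped, while its other probe sets were near background. Cd28, the main costimulator of naive T cells, gave -0.28 ± 0.10 at probe set 1437025_at, or -0.27 without untreated mouse 3, where intensities were 40.8, 35.1 and 35.3 in NOX-A12 mice, against 42.7, 53.3 and 50.0 in untreated mice, and -0.13 ± 0.19 at 1417597_at. At 1437025_at the 3 NOX-A12 mice were near background and the 3 untreated mice above it. Cd8a, a coreceptor chain of cytotoxic T cells, gave -0.36 ± 0.11 at 1440811_x_at and -0.19 ± 0.15 at 1425335_at, both near background in every mouse, and 0.06 ± 0.14 at 1451673_at, which passed the limit on some arrays.

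In proximal signalling, Fyn, a kinase related to Lck, had 248, 250 and 293 in NOX-A12 mice, against 338, 365 and 391 in untreated mice, at probe set 1448765_at. The groups did not overlap there, and the log2 change was -0.45 ± 0.11, or -0.40 without untreated mouse 3, but it was -0.13 ± 0.09 at the probe set 1417558_at, where the groups overlapped. Txk, a Tec-family kinase, gave -0.20 ± 0.10. Syk, the kinase related to ZAP70, gave 0.16 ± 0.17, 0.12 ± 0.09 and -0.07 ± 0.13 at the 3 probe sets above background in every mouse, and 0.39 ± 0.18 at 1457239_at, above it on some arrays. Trat1, a receptor-associated adaptor, was near background in every mouse at both probe sets, at -0.32 ± 0.10 and -0.02 ± 0.12. Zap70, which docks on the phosphorylated CD3 and zeta chains, was above background in every mouse at 1439749_at and 1440178_x_at, and gave 0.16 ± 0.13 and -0.09 ± 0.11 there. Its other probe set, 1422701_at, was near background in every mouse and gave -0.17 ± 0.11. Every NOX-A12 mouse was below every untreated mouse at that probe set.

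In early T-cell development, Rora, a nuclear receptor of innate lymphoid cells, had 66.4, 60.7 and 59.7 in NOX-A12 mice, against 80.0, 87.4 and 86.6 in untreated mice, at probe set 1424034_at. The groups did not overlap, and the log2 change was -0.36 ± 0.09 (adjusted p = 0.926 in limma), or -0.35 without untreated mouse 3. The other Rora probe sets were near background on some or all arrays and lay between -0.27 ± 0.10 and 0.44 ± 0.15. Tox, a nuclear regulator of lymphoid development, gave -0.38 ± 0.11 at 1425484_at, where the 3 NOX-A12 mice were near background, and 0.27 ± 0.11 at 1425483_at, where all 6 mice were. Its brightest probe set, 1442039_at, gave 0.08 ± 0.29. Rag1 and Rag2, which cut receptor segments, were above background in every mouse at 1450680_at and 1418065_at and gave 0.24 ± 0.20 and 0.25 ± 0.17, and the pre-T-cell receptor gene Ptcra was near background. Dntt, of the same list, was above background in every mouse at 1420166_at, 1449757_x_at and 1450545_a_at. It gave -0.39 ± 0.16, -0.37 ± 0.20 and -0.13 ± 0.35 there, with groups that overlapped.

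**Figure D4:**
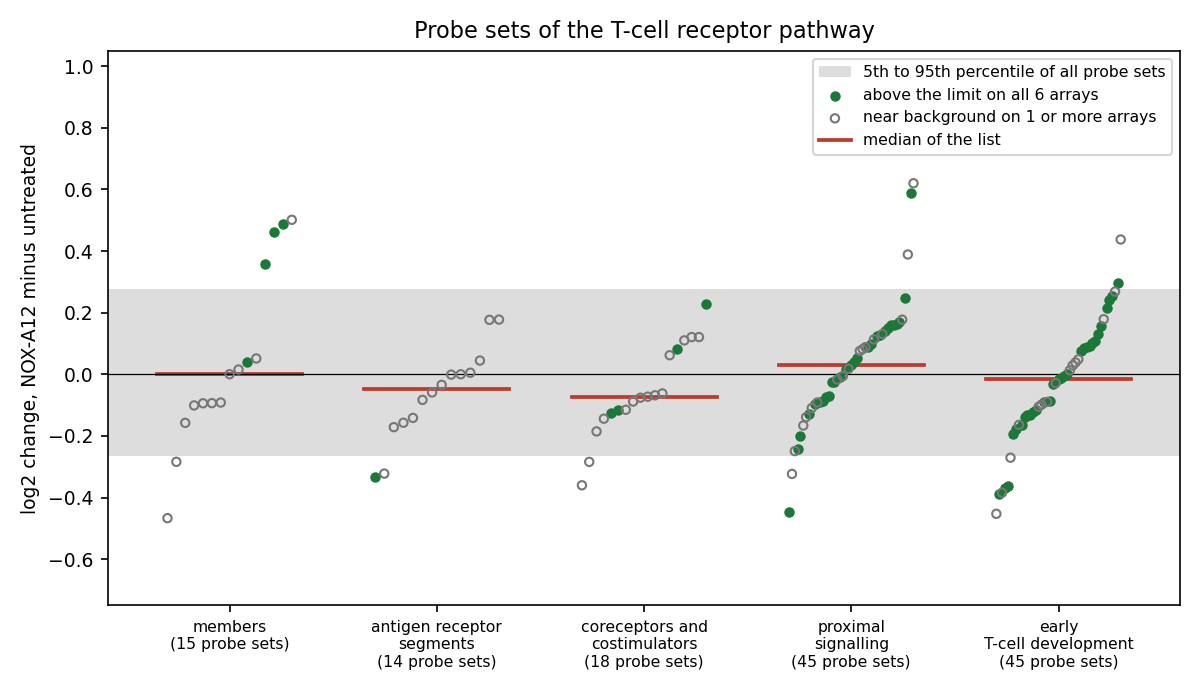
Log2 change (NOX-A12 minus untreated) of the 15 member probe sets and of the probe sets of 4 lists of genes that act with the receptor, 1 point a probe set, filled where it was above the background limit on all 6 arrays, with red lines for list medians and a grey band from -0.26 to 0.28 for the 5th to 95th percentile of all probe sets. The list medians lie between -0.07 and 0.03.

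Markers of cell types that could hold these transcripts were measured on the same arrays, and their part in the member values was not tested. Of the T-cell markers outside the 9 genes, 7 of 10 were measured, and Cd4, Cd5, Cd6, Cd8b1 and Themis were near background throughout. The summed intensity of the 7 was 146 to 164 in NOX-A12 mice and 149 to 186 in untreated mice. The receptor chain genes Trac, Trbc1 and Trdc had no probe set with their symbol alone and were not measured. Natural killer markers, 16 of 17 measured and none near background throughout, had a log2 change under 0 in 11 genes and over 0 in 5, read at the brightest probe set of each, and their summed intensity, 18380 to 20540 in NOX-A12 and 18010 to 20750 in untreated mice, was made up largely of genes shared with myeloid cells such as Tyrobp. At an unadjusted p under 0.05 in limma, 5 of the 20 natural killer probe sets were lower and 0 higher. Over all probe sets, 3.1% were lower and 1.88% higher. Klrc1 and Klrd1, receptor chains with the smallest unadjusted p among these markers, gave -0.60 ± 0.09 at 1425005_at and -0.52 ± 0.09. The Klrc1 probe set 1426182_a_at was near background in every mouse and gave -0.07 ± 0.24. On the other side, Fcgr3 gave 0.22 ± 0.12, Prf1 gave 0.18 ± 0.15 at its brighter probe set and Nkg7 gave 0.09 ± 0.12. B-lineage markers, 8 of 9 measured with Ms4a1 near background, summed to 2994 to 3964 in NOX-A12 mice and 4141 to 5209 in untreated mice. The largest values in this sum were those of Vpreb1 and Igll1. Plasmacytoid dendritic markers, 7 of 8 measured, summed to 2465 to 2737 in NOX-A12 mice and 2557 to 3075 in untreated mice. Innate lymphoid type 2 markers, 8 of 10 measured with Il5 and Il13 near background, summed to 845 to 982 in NOX-A12 mice and 921 to 1056 in untreated mice. Stromal reticular markers, all 7 measured, summed to 3659 to 4415 in NOX-A12 and 4980 to 6254 in untreated mice. The 6254 was that of untreated mouse 3, and the other untreated mice had 4980 and 5358. At each gene's brightest probe set, 0 genes were higher and 7 lower for stromal reticular markers, and 0 and 8 for B-lineage markers. Plasmacytoid dendritic markers had 1 higher and 6 lower, and innate lymphoid type 2 markers 3 and 5. Over the array, 49.9% of probe sets were higher.

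The genes whose levels followed the members most closely over the 6 mice were found by the root mean square difference of log2 values centred on each gene's mean, among 10782 genes above background on all arrays. For Cd3d they were Clec4e, a lectin receptor of myeloid cells (0.07 log2 units), Thap2 (0.09) and Ppp1r42 (0.10), where the median gene was 0.30 away. For Trgv4 at 1450521_a_at they were Hal, the histidine-degrading enzyme gene (0.07), Zfhx3 (0.11) and Tra2a (0.12), against a median of 0.29, and the same 3 genes were nearest to 1422189_x_at. With 6 mice and this many genes, such closeness is a description and was not tested.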

How the data were processed

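RNA of whole marrow from 6 SCID/Bg mice, 1 array a mouse, was biotin-labelled and run on Affymetrix Mouse Genome 430 2.0 arrays, per the labels and the series' design text. The sample titles give the groups and number separate mice. The deposited values were probe-set intensity values that the authors had already summarised, by software and scaling not given in the sources used here. Array medians lay between 44.8 and 45.6, so no normalization was added. Precision is limited by the number of arrays.

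The array's annotation table gave the gene symbols (34945 probe sets with 1 symbol, 932 with several, 9160 with none listed), and all 7 member genes with a probe set matched a RefSeq gene identifier. 1 probe set naming a member together with another gene was left out. Intensities were taken as log2(intensity + 16) and tested two-sided with limma 3.58.1 under R 4.3.3, by lmFit and eBayes without a covariate, and adjusted by Benjamini-Hochberg over 45037 probe sets, with a threshold of 0.05. The fit was checked on simulated data. The members, lists and rules were chosen with earlier results of these data known. Named were all members, the 4 probe sets of smallest unadjusted p in each of the 4 lists, and the 3 nearest genes for the 3 member probe sets of smallest p. Zap70, Rag1, Rag2, Ptcra, Trgv1, Klrd1, Myh1, Mylpf and further probe sets of a gene were named after their values were seen. The same holds for Fcgr3, Prf1, Nkg7, Vpreb1, Igll1, Klrc1, Dntt, Cd2 and Cd27. Alternatives were other normalizations, offsets, variance models, array weights, a filter on dim probe sets, a replicate block, each mouse left out, other probe-set choices and other background limits. Figures were drawn with matplotlib 3.10.9.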

Additional observations from a re-analysis of the deposited data

How the results depend on the processing

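No member probe set and no probe set of the 4 lists passed limma's adjusted test under any alternative, and the count over the whole array was 0 in each as well (0 without each mouse in turn). The lowest adjusted p over the array came without untreated mouse 1, at 0.0631, and among members that setting gave 0.62. Trgv4 at both brighter probe sets, Cd3d and Cd3g kept their sign under every alternative. For Trgv4 and Cd3d there, the groups did not overlap, so leaving out a mouse or changing the offset could not have turned the sign. Leaving out each mouse gave 0.43 to 0.56 and 0.30 to 0.39 for Trgv4 at 1450521_a_at and 1422189_x_at, 0.34 to 0.57 for Cd3d and 0.29 to 0.69 for Cd3g. All Cd247 probe sets and Bcl11b 1435227_at, near background in most or all mice, stayed under 0 under every alternative. Leaving out each mouse gave -0.35 to -0.19 for Cd247 at 1426396_at, where the groups did not overlap. It gave -0.60 to -0.25 for Bcl11b 1435227_at. Signs turned when single mice were left out for Lat (-0.079 to 0.19) and for dim probe sets: Trgv4 1427802_a_at (-0.19 to 0.0052), Cd3e (-0.31 to 0.05), and Bcl11b 1438784_at (-0.041 to 0.18), 1450339_a_at (-0.065 to 0.13) and 1452966_at (-0.14 to 0.25). Bcl11b 1452966_at was also -0.0097 with an offset of 64, and the mean of all Bcl11b probe sets was -0.10. The cause was not tested. The mean of all Trgv4 probe sets, the dim one included, was 0.25. The number of member probe sets near background on all arrays was 5 to 10 with other limits, against 7. The labels do not say whether mouse numbers pair animals of the 2 groups. Same-numbered mice correlated at -0.09, 0.05 and 0.03 in their deviations from group means, and differently numbered ones at -0.21 to 0.22. Deviations within a group sum to 0, so these correlations cannot settle whether animals were paired. With the mouse number as a replicate block, 0 member probe sets passed, and 3 were higher and 2 lower at an unadjusted p under 0.05. Signal near background limits Cd3e, Cd247 and Bcl11b.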
